A study of Mus musculus with 27 samples.

Results

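The 8 genes described here encode the RNA-binding proteins and RNases that shorten the life of short-lived messenger RNAs: the ZFP36 family (Zfp36, Zfp36l1, Zfp36l2), the Regnases Zc3h12a and Zc3h12d with the related gene N4bp1, and the Roquins Rc3h1 and Rc3h2. They were chosen by gene name, 8 of 54532 genes in the count files, and all 8 were found once and passed the filter on low counts in every comparison. The samples were splenic B cells of wild-type C57BL6 mice, enriched by negative selection on magnetic beads and cultured for 3 h. In the first experiment 5 groups of 4 libraries were compared. One was left unstimulated, 1 received lipopolysaccharide (LPS, a bacterial cell wall component sensed by Toll-like receptor signaling), 1 received IL-4 with an antibody to CD40 (IL-4+anti-CD40, which stands for T cell help), and 2 further groups received the same stimuli with disulfiram (DSF) at 1 uM, a drug used against alcohol dependence. Groups with no inhibitor had the vehicle, DMSO. The second experiment had 7 single libraries: the same 5 conditions, and each stimulus with 1 uM ibrutinib, an inhibitor of the kinase BTK. The paper's captions call the cells with DSF or ibrutinib pre-treated. No group received DSF without a stimulus. An effect of DSF on the response to the stimulus and one on resting cells therefore cannot be told apart. The study calls the libraries of a group biologically independent. The labels give neither the age of the mice nor whether each library came from a different mouse, and the p-values measure only the spread between these libraries.

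ZFP36 proteins bind AU-rich elements in the 3′ untranslated region (3′ UTR) and bring the CCR4-NOT deadenylase, which removes the poly(A) tail. Regnases are endonucleases that cut stem-loops in the 3′ UTR of active messages, whereas Roquins bind similar stem-loops and recruit deadenylation and decapping. In lymphocytes these proteins limit cytokine and activation genes, several of them also limit their own messages, and the ZFP36 family is known for keeping B cells quiescent.

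Letters of the kind that such proteins read occur in messages of 5 of the 8 genes themselves. The windows below are shown because the regulators are also possible targets. The letters TATTTAT, the core of an AU-rich element, were searched on the transcript strand of the 3′ UTR in GENCODE vM21 on mm10 (GRCm38). Zfp36 held 3 copies, Zfp36l1 held 3, Zfp36l2 held 3, Rc3h1 held 2 and Rc3h2 held 3. No copy was found in the 3′ UTR of Zc3h12a, Zc3h12d or N4bp1. Long 3′ UTRs hold the motif by length alone: it occurred in 19.5% of genes with a 3′ UTR within 10% of the length of that of Zfp36 (774 bases), in 39.8% for Zfp36l1 (1835 bases) and 39% for Zfp36l2 (1822 bases), but in 80.4% for Rc3h1 (7181 bases) and 69.1% for Rc3h2 (5160 bases). For Zc3h12a, Zc3h12d and N4bp1, which held no copy, the share among genes of like length was 20.4%, 46% and 59.7%. Presence in 5 of the 8 genes is thus to be read beside these shares. Over all 21010 genes with an annotated 3′ UTR the share was 25.9%. The longer form TTATTTATT, which overlaps the shorter one, was present once in each of the 5 genes and in 7.11% of all genes. Among genes with a 3′ UTR of like length its share was 4.21% for Zfp36, 10% for Zfp36l1, 10.1% for Zfp36l2, 28.8% for Rc3h1 and 22.2% for Rc3h2. In the following windows, 5′ to 3′ on the transcript strand, the capitals mark TATTTAT, and the message of tumor necrosis factor (Tnf), a textbook target of Zfp36, is given for comparison.
Zfp36, chr7:28376959-28376986, minus strand: cttTATTTATgacgacttTATTTATtgt
Zfp36l1, chr12:80108167-80108194, minus strand: actgttggatTATTTATtttagaaattc
Zfp36l2, chr17:84184914-84184941, minus strand: ctatttaactTATTTATtatcttgtgaa
Rc3h1, chr1:160970044-160970071, plus strand: ctttactcatTATTTATtgagatgagga
Rc3h2, chr2:37373287-37373314, minus strand: aaagacatttTATTTATtttactctgta
Tnf, chr17:35199675-35199702, minus strand: tatTATTTATTTATTATTTATTTATttg

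The stem-loop read by Regnases and Roquins was searched as TTCNNNGAA with a pyrimidine, a purine and a pyrimidine in the loop. Among the 8 genes it occurred only in the Roquin messages, 2 times in Rc3h1 and once in Rc3h2, and in 5.02% of all genes. Of genes with a 3′ UTR of like length, 27.5% held it for Rc3h1 and 15.5% for Rc3h2. The capitals mark the 3 paired bases on each side and the loop between them, and the flanking bases are shown because they can lengthen the stem.
Rc3h1, chr1:160971656-160971678, plus strand: caataacTTCTGTGAAgttgcct
Rc3h1, chr1:160968035-160968057, plus strand: gtttttgTTCTGTGAAtgaactt
Rc3h2, chr2:37373805-37373827, minus strand: aattaacTTCTGTGAAgttgttt
Tnf, chr17:35199581-35199603, minus strand: acatgttTTCTGTGAAaacggag
Nfkbiz, chr16:55812610-55812632, minus strand: aagttgtTTCTATGAAacaaacc
These matches describe letters, not bound sites, and stem-loops of other letters were not searched. Of the list of 35 textbook targets followed below, 20% held a match, and Il6, Il12b, Rel and Tfrc did not. A missing match, as in Zc3h12a, therefore does not show that a stem-loop is absent.

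Each library of the first experiment held between 17804851 and 23632992 counted reads, and each of the second between 16049295 and 24619776. Unstimulated libraries 1 and 2 stood apart from unstimulated libraries 3 and 4, with a chi-square per gene of 76.2 to 81.5 between the pairs and 2.74 and 6.14 within them. IL-4+anti-CD40 libraries 1 and 2 stood apart from libraries 3 and 4 of that group to a lesser degree, at 14.0 to 24.3 between the pairs and 3.29 and 5.88 within, whereas pairs in the other 3 groups gave 3.21 to 9.51. For the unstimulated pairs the summed FPKM (fragments per kilobase of gene, scaled to library size) of 7 B cell markers was 2405 and 2450 in libraries 1 and 2, against 3245 and 3264 in 3 and 4, and lay between 1147 and 1725 in the stimulated libraries. The summed FPKM of 6 myeloid markers was 320 to 427 in the 4 unstimulated libraries and 79.3 to 147 in the 16 stimulated ones; in the second experiment it was 11.4 and 8.16 to 21.8. LPS lowered 4 of the 6 myeloid markers and so did IL-4+anti-CD40. The summed FPKM of 5 neutrophil markers was 55.0 and 53.1 in unstimulated libraries 1 and 2, 18.7 and 23.5 in libraries 3 and 4, and 10.1 to 21.7 in the stimulated libraries. That of 4 erythroid markers was 3.24 and 1.58 in unstimulated libraries 1 and 2, 13.2 and 14.1 in libraries 3 and 4, and at most 2.48 in the stimulated ones. Of these markers Ly6g was at 0 in 21 of the 27 libraries, whereas S100a8 and S100a9 were above 0 in all 27, and of the NK markers Ncr1 was at 0 in 16 and Prf1 in none. The part of other cells and of the library splits in the results was not tested. Values against each pair of the split groups are given beside the results; these subsets were chosen after the data had been seen. Fewer cells of a type and less RNA per cell cannot be told apart in such bulk samples.

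**Figure D1:**
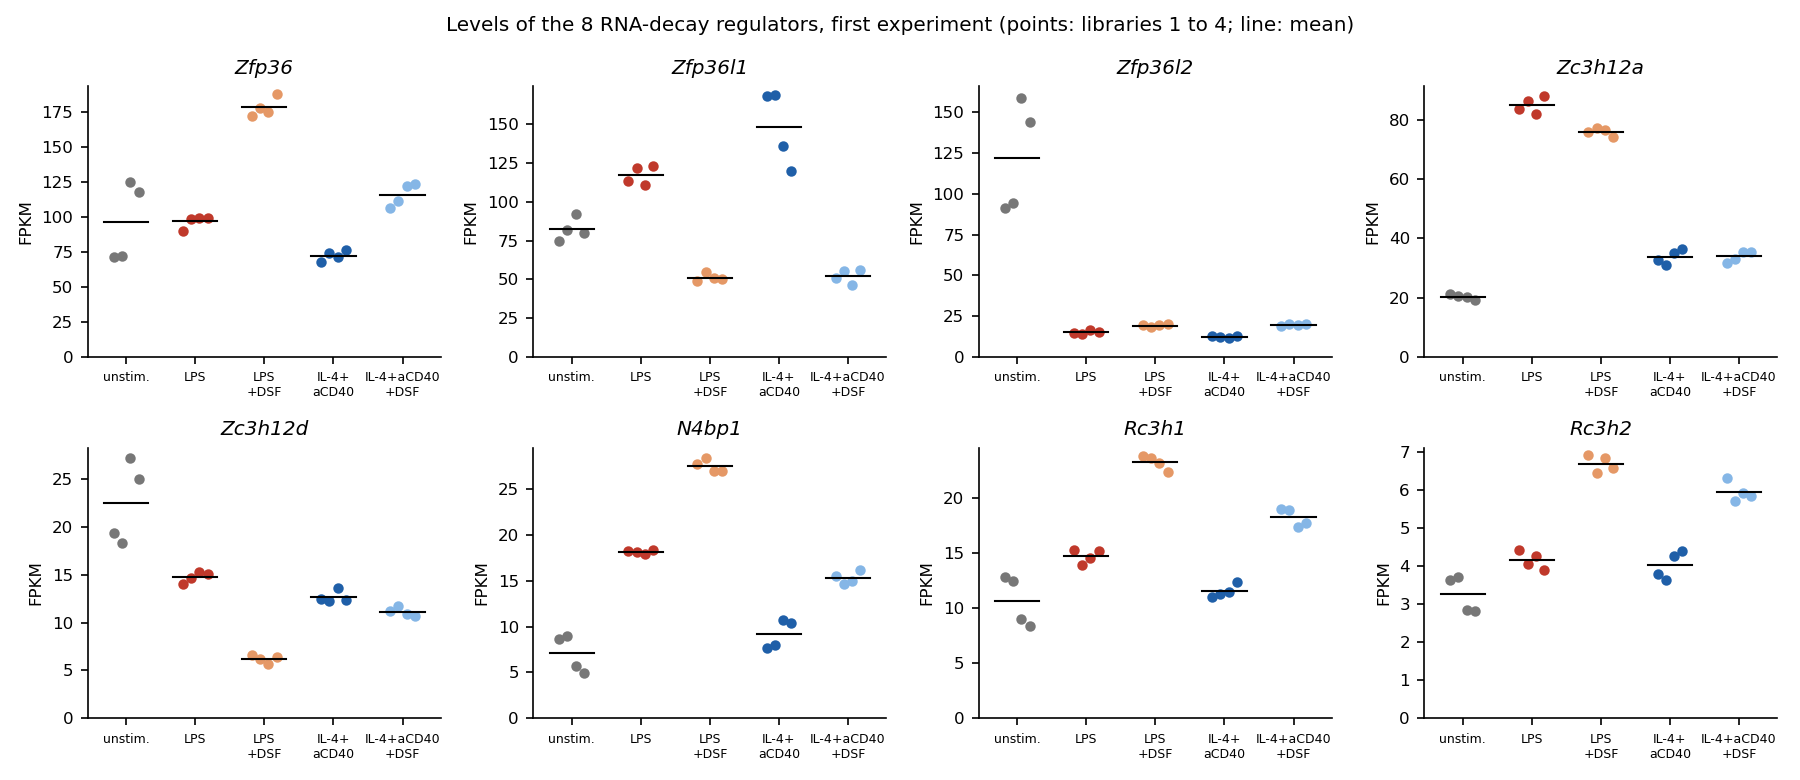
Level of each of the 8 genes in FPKM on a linear axis starting at 0, in the 5 groups of the first experiment. Points are the 4 libraries of a group and the line is their mean. Zfp36l2 stands at 91.4 to 159 in unstimulated cells and below 21 in every stimulated library, and Zc3h12a is highest in both groups under LPS.

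On the FPKM scale, which divides by the annotated length of the gene, the regulators of unstimulated B cells fell into tiers. That length was 12189 bases for N4bp1 and 19624 for Rc3h2, against 6469 and 8799 in the transcript used for the 3′ UTR search. For Zfp36l1, Zfp36l2 and Zc3h12d the gene and transcript lengths were equal. The order between genes, above all the low places of N4bp1 and Rc3h2, therefore depends on the length used. The ZFP36 family was the most abundant, with mean levels of 122 ± 34.5 (SD, n = 4) for Zfp36l2, 96.2 ± 28.8 for Zfp36 and 82.2 ± 7.33 for Zfp36l1, and these neighbours overlapped between libraries. Zc3h12d and Zc3h12a followed at 22.5 ± 4.32 and 20.3 ± 0.790 and also overlapped. Rc3h1 at 10.7 ± 2.29 overlapped N4bp1 at 7.09 ± 2.02, and Rc3h2 was the lowest at 3.26 ± 0.488. The order changed with the stimulus. In LPS-stimulated cells it ran from Zfp36l1 over Zfp36, Zc3h12a and N4bp1 to Zfp36l2, Zc3h12d and Rc3h1, of which the last 3 overlapped, and in both groups with DSF Zfp36 came first. The widest range over the 5 group means was that of Zfp36l2, 9.94-fold, and the narrowest that of Rc3h2, 2.06-fold.

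The first question was how the regulators respond when a B cell is activated. LPS raised Zc3h12a, N4bp1, Zfp36l1, Rc3h1 and Rc3h2 and lowered Zfp36l2 and Zc3h12d. By edgeR's quasi-likelihood test with an adjusted p under 0.05, 5 of the 8 members were higher and 2 lower, where over all 14477 genes tested 29.6% were higher and 33.3% lower (62.9% in either direction). IL-4+anti-CD40, compared with the same unstimulated libraries, raised Zfp36l1, Zc3h12a and Rc3h2 and lowered Zfp36l2 and Zc3h12d: 3 higher and 2 lower, against 30.4% and 32.1% of 14433 genes (62.5% in either direction). In these 7 and 5 genes the libraries of the groups did not overlap, as in 29.6% of all genes above and 31.3% below for LPS, and in 29.7% and 30.3% for the other stimulus. Since most genes were called in one direction or the other, these counts say little about the 8 genes, and their sizes and levels carry the description. The median log2 fold change of the 8 was 0.43 under LPS and 0.23 under IL-4+anti-CD40, against -0.046 and -0.041 over all genes.

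Zfp36, the founding member of its family, encodes tristetraprolin. Its level was 70.9, 71.9, 125 and 117 FPKM in unstimulated libraries 1 to 4, 89.9, 98.6, 98.9 and 99.4 under LPS, and 67.8, 73.9, 71.2 and 76.1 under IL-4+anti-CD40. The LPS libraries lay between the pairs of unstimulated ones. Its log2 fold change was 0.02 under LPS (SE 0.20, adjusted p = 0.944, 95% interval -0.43 to 0.47) and -0.40 under IL-4+anti-CD40 (SE 0.20, adjusted p = 0.110), so neither passed the test. The call depended on the unstimulated libraries used: under LPS the value was -0.29 (edgeR adjusted p = 2.67e-05) against libraries 3 and 4 alone and 0.46 (adjusted p = 4.78e-09) against libraries 1 and 2 alone. With IL-4+anti-CD40 it was -0.72 (adjusted p = 1.3e-05) against libraries 3 and 4 and 0.02 against libraries 1 and 2. Leaving out library 1 or library 2 alone brought the latter to -0.52, which passed (adjusted p = 0.0321 and 0.0354). No direction is therefore given for Zfp36 under either stimulus.

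Zfp36l1, whose product acts with that of Zfp36l2 in lymphocyte development, was at 74.9, 81.7, 92.3 and 79.9 FPKM without stimulus, 114, 122, 111 and 123 under LPS, and 168, 169, 136 and 120.0 under IL-4+anti-CD40. Every stimulated library was above every unstimulated one. The log2 fold change was 0.53 (SE 0.081, adjusted p = 0.0005) under LPS and 0.87 (SE 0.13, adjusted p = 0.00035) under IL-4+anti-CD40. With IL-4+anti-CD40 libraries 3 and 4 alone the latter was 0.70, and with libraries 1 and 2 alone 1.08; against either pair of unstimulated libraries the values lay at 0.48 and 0.61 for LPS and at 0.81 and 0.93 for IL-4+anti-CD40. Zfp36l2 moved the other way and by the largest amount of the 8. It stood at 91.4, 94.1, 159 and 144 FPKM without stimulus, at 14.9, 14.2, 16.4 and 15.4 under LPS and at 13.0, 12.3, 11.3 and 12.6 under IL-4+anti-CD40. The fall was 7.98-fold under LPS (log2 -2.997, SE 0.20, adjusted p = 5.31e-06) and 9.82-fold under IL-4+anti-CD40 (log2 -3.30, SE 0.21, adjusted p = 4.02e-06). Against unstimulated libraries 3 and 4 alone the log2 values were -3.29 and -3.60, and against libraries 1 and 2 alone -2.58 and -2.91. Within 1 family, therefore, the level of Zfp36l1 was above and that of Zfp36l2 below the unstimulated level in all 8 stimulated libraries.

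Zc3h12a encodes the founding Regnase, itself a gene induced by Toll-like receptor signaling. It was at 21.1, 20.5, 20.2 and 19.2 FPKM without stimulus and at 83.6, 86.2, 81.8 and 88.0 under LPS, a 4.23-fold rise (log2 2.08, SE 0.055, adjusted p = 5.07e-08). With IL-4+anti-CD40 the 4 libraries were at 32.7, 31.1, 34.9 and 36.4, with a log2 change of 0.76 (SE 0.068, adjusted p = 2.36e-05). The unstimulated split did not show in this gene, whose 4 unstimulated libraries differed by less than 2 FPKM. Zc3h12d, a Regnase expressed mainly in lymphocytes, fell with both stimuli. Its levels were 19.4, 18.3, 27.2 and 25.0 FPKM without stimulus, 14.0, 14.7, 15.2 and 15.1 under LPS and 12.4, 12.3, 13.6 and 12.4 under IL-4+anti-CD40. The log2 fold changes were -0.60 (SE 0.13, adjusted p = 0.0040) and -0.81 (SE 0.14, adjusted p = 0.000808). Against unstimulated libraries 3 and 4 alone they were -0.80 and -1.02, and against libraries 1 and 2 alone -0.33 and -0.57, all of which passed.

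N4bp1, whose product has a NYN RNase domain like that of the Regnases and is cut by the protease MALT1, was at 8.64, 8.998, 5.74 and 4.99 FPKM without stimulus. It rose under LPS to 18.3, 18.1, 17.9 and 18.4, a 2.60-fold change (log2 1.38, SE 0.17, adjusted p = 0.000161). With IL-4+anti-CD40 it was at 7.71, 7.97, 10.8 and 10.4, which overlapped the unstimulated libraries (log2 fold change 0.40, SE 0.20, adjusted p = 0.105). Both values moved with the unstimulated libraries used. Under LPS the change was 1.79 against libraries 3 and 4 alone and 1.07 against libraries 1 and 2 alone, and both passed. Under IL-4+anti-CD40 it was 0.80 against libraries 3 and 4 (adjusted p = 0.0014) and 0.07 against libraries 1 and 2 (adjusted p = 0.702), and it lay between 0.27 and 0.53 when single libraries were left out, passing without unstimulated library 2 (0.53, adjusted p = 0.0453). With IL-4+anti-CD40 libraries 3 and 4 alone it was 0.63 (adjusted p = 0.0761) and with libraries 1 and 2 alone 0.19 (adjusted p = 0.546).

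Rc3h1, the gene of Roquin-1, was at 12.8, 12.5, 9.04 and 8.39 FPKM without stimulus, 15.3, 13.9, 14.6 and 15.2 under LPS and 11.0, 11.3, 11.5 and 12.4 under IL-4+anti-CD40. Its log2 fold change was 0.48 under LPS (SE 0.13, adjusted p = 0.0113) and 0.13 under IL-4+anti-CD40 (SE 0.13, adjusted p = 0.401). The second value did not pass and took the other sign, -0.02, with total counts in place of TMM scaling. Rc3h2 was at 3.63, 3.73, 2.85 and 2.83 FPKM without stimulus, 4.43, 4.07, 4.26 and 3.91 under LPS and 3.80, 3.64, 4.27 and 4.40 under IL-4+anti-CD40. The log2 fold changes were 0.37 (SE 0.097, adjusted p = 0.00912) and 0.33 (SE 0.11, adjusted p = 0.0264). With total counts in place of TMM, Rc3h1 and Rc3h2 no longer passed for LPS (0.25 and 0.14). With TMM kept, Rc3h2 no longer passed for IL-4+anti-CD40 against unstimulated libraries 1 and 2 alone (0.14, adjusted p = 0.235). This call of Rc3h2 was also lost on leaving out any 1 of unstimulated libraries 3 and 4 and IL-4+anti-CD40 libraries 3 and 4. With IL-4+anti-CD40 libraries 3 and 4 alone it was 0.47 (adjusted p = 0.0339) and with libraries 1 and 2 alone 0.23 (adjusted p = 0.193). Under LPS both Roquins passed against either pair of unstimulated libraries, Rc3h1 at 0.79 and 0.25 and Rc3h2 at 0.58 and 0.21 against libraries 3 and 4 and against libraries 1 and 2. Against unstimulated libraries 3 and 4 alone Rc3h1 passed for IL-4+anti-CD40 (0.43, adjusted p = 0.000827), and against libraries 1 and 2 alone it was at -0.13.

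**Figure D2:**
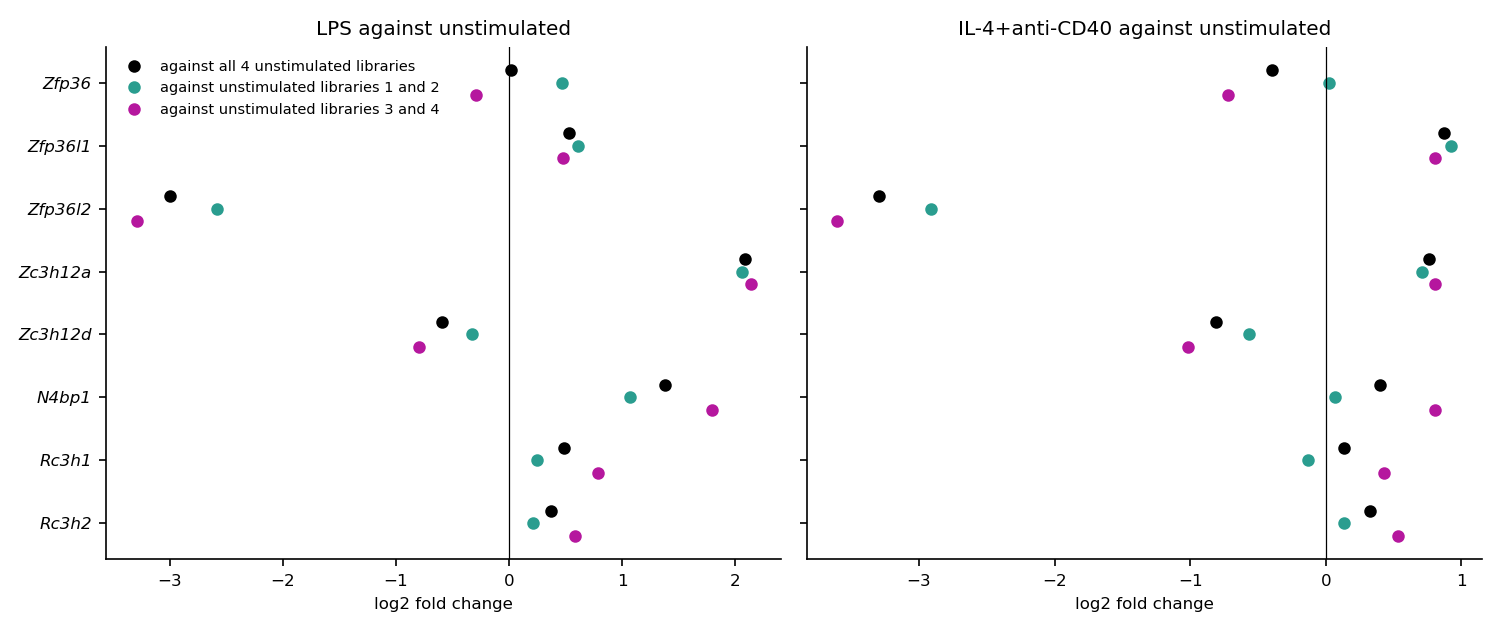
Log2 fold change of each of the 8 genes against the unstimulated libraries, for LPS and for IL-4+anti-CD40, computed with all 4 unstimulated libraries, with libraries 1 and 2 alone and with libraries 3 and 4 alone. Zfp36 changes sign under LPS, from 0.46 to -0.29, whereas Zfp36l2 stays far below 0 and Zc3h12a above it in each fit.

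The stimuli were also compared directly, without the unstimulated libraries. With LPS, Zc3h12a was 2.60-fold higher than under IL-4+anti-CD40 (log2 1.38, SE 0.061, adjusted p = 7.68e-09) and N4bp1 2.04-fold higher (log2 1.03, SE 0.10, adjusted p = 8.59e-06). Smaller differences in the same direction were seen for Zfp36 (0.47, adjusted p = 2.02e-05), Rc3h1 (0.40, adjusted p = 0.000118), Zfp36l2 (0.36, adjusted p = 0.000878) and Zc3h12d (0.27, adjusted p = 0.00211). Zfp36l1 alone was lower under LPS, at -0.29 on the log2 scale (SE 0.095, adjusted p = 0.0325), and its libraries overlapped. That call was lost when any 1 LPS library or either of IL-4+anti-CD40 libraries 1 and 2 was left out. Against IL-4+anti-CD40 libraries 3 and 4 alone it was -0.10 (adjusted p = 0.169) and against libraries 1 and 2 alone -0.46 (adjusted p = 1.04e-08). For N4bp1 these values were 0.80 and 1.28, and both passed. Rc3h2 did not pass (0.10, adjusted p = 0.318, 95% interval -0.063 to 0.26), and its sign turned with total counts, to -0.037, and against IL-4+anti-CD40 libraries 3 and 4 alone, to -0.034, whereas against libraries 1 and 2 alone it passed (0.23, adjusted p = 0.00137). In all, 6 of the 8 were higher and 1 lower, against 22.3% and 17.3% of 14078 genes (39.7% in either direction). With total counts the higher value of Zc3h12d was no longer called (0.13).

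**Figure D3:**
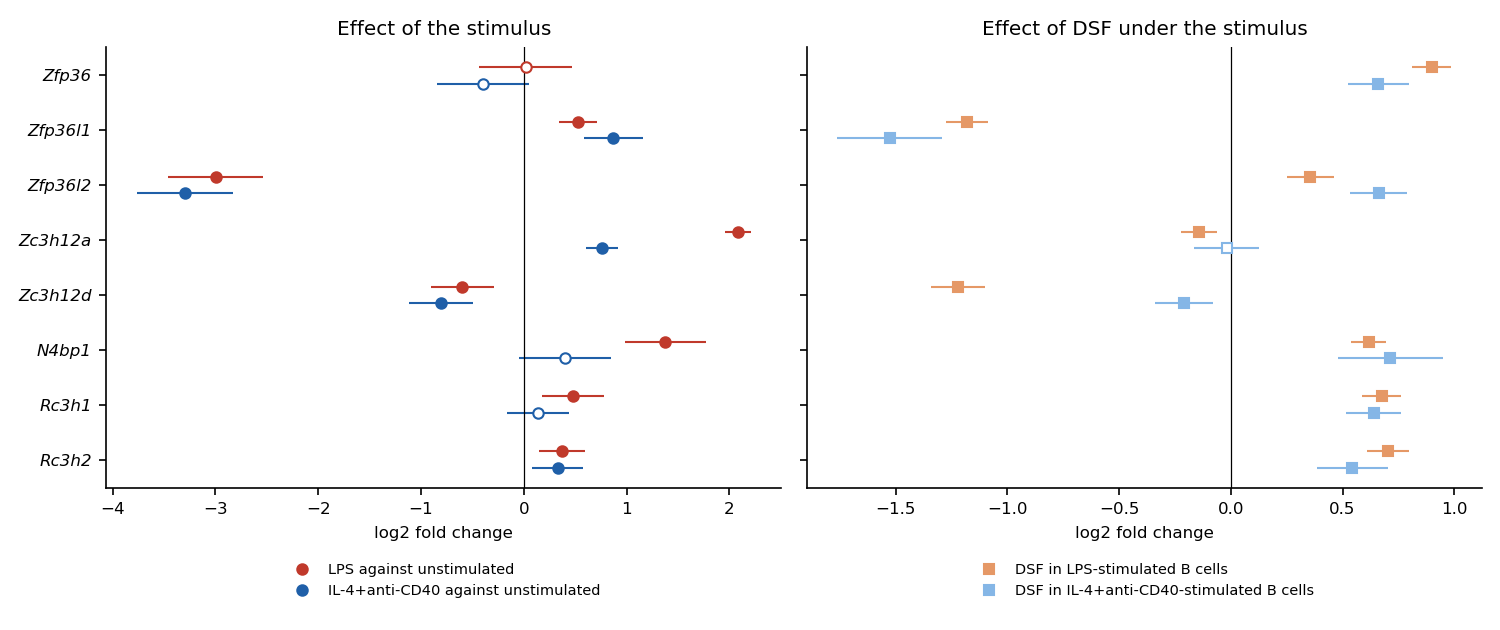
Log2 fold changes of the 8 genes with 95% intervals from edgeR, stimulus effects on the left and DSF effects on the right. Filled points passed an adjusted p of 0.05 and open points did not. With DSF the 2 Roquins, N4bp1, Zfp36 and Zfp36l2 lie above 0 under both stimuli and Zfp36l1 and Zc3h12d below.

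The next question was how these genes differed between stimulated B cells with and without DSF. In LPS-stimulated cells it raised Zfp36, Zfp36l2, N4bp1, Rc3h1 and Rc3h2 and lowered Zfp36l1, Zc3h12d and, slightly, Zc3h12a. All 8 passed the test, 5 higher and 3 lower, where 35.1% of 14154 genes were higher and 36% lower (71.1% in either direction). In all 8 genes the 4 libraries with DSF did not overlap the 4 without, as was the case for 31.3% of all genes above and 33.1% below. In cells under IL-4+anti-CD40 the same 5 genes were higher and Zfp36l1 and Zc3h12d were lower, against 30.1% and 31.6% of 14275 genes (61.8% in either direction). Those 7 genes did not overlap either, as for 27.6% of genes above and 29.7% below. The median log2 fold change of the 8 was 0.49 and 0.59, against 0.0019 and -0.015 over all genes. DSF also lowered 6 of 7 B cell markers in LPS-stimulated cells, where their summed FPKM was 1147 to 1222 with and 1610 to 1640 without the drug. Under IL-4+anti-CD40 it lowered 4 of them and raised Cd79a and Ebf1. Among the 6 myeloid markers Itgam rose by 1.72 on the log2 scale and Csf1r fell with DSF under LPS, and the summed FPKM of the 6 was 79.3 to 86.2 with and 81.4 to 95.2 without the drug. Under IL-4+anti-CD40 3 rose (Itgam 2.25, Cd14 1.54, Lyz2 0.35) and the sum was 111 to 147 with and 83.3 to 102 without it. The part of these markers in the members' changes was not tested.

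Within the ZFP36 family DSF moved the genes in different directions. With DSF, Zfp36 reached 172, 178, 175 and 187 FPKM in LPS-stimulated cells, above all 4 libraries under LPS alone, and 107, 111, 122 and 124 under IL-4+anti-CD40. The rise was 1.86-fold (log2 0.90, SE 0.043, adjusted p = 1.14e-15) and 1.58-fold (log2 0.66, SE 0.062, adjusted p = 5.45e-06). Zfp36l1 fell to 48.7, 54.5, 50.8 and 50.5 FPKM under LPS and DSF and to 51.0, 55.6, 46.2 and 55.8 under IL-4+anti-CD40 and DSF. These 8 libraries lay between 46.2 and 55.8 FPKM. Without DSF the libraries of the 2 stimuli overlapped, and the call of a difference between them depended on the libraries used, as given above. The fall was 2.27-fold (log2 -1.18, SE 0.045, adjusted p = 1.23e-17) and 2.88-fold (log2 -1.53, SE 0.11, adjusted p = 1.28e-06). Zfp36l2, low after stimulation, was somewhat less so with DSF. Its level was 19.3, 18.3, 19.3 and 19.8 FPKM under LPS and 19.1, 20.1, 19.4 and 20.2 under IL-4+anti-CD40, log2 fold changes of 0.36 (SE 0.051, adjusted p = 1.04e-06) and 0.66 (SE 0.059, adjusted p = 3.85e-06).

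Among the Regnases the lymphocyte gene Zc3h12d showed the larger effect. With LPS and DSF it was at 6.63, 6.21, 5.72 and 6.41 FPKM, 2.33-fold below LPS alone (log2 -1.22, SE 0.058, adjusted p = 1.48e-15). With IL-4+anti-CD40 and DSF it was at 11.2, 11.7, 10.9 and 10.7, only -0.21 on the log2 scale (SE 0.059, adjusted p = 0.00939), which did not pass when all 20 libraries were fitted together (-0.15, adjusted p = 0.217). Zc3h12a was at 75.9, 77.2, 76.7 and 74.1 FPKM under LPS and DSF, close to but below every library under LPS alone (log2 -0.14, SE 0.039, adjusted p = 0.00225). With IL-4+anti-CD40 and DSF its libraries were at 31.8, 32.9, 35.4 and 35.4 and overlapped those without DSF (log2 -0.02, adjusted p = 0.835, 95% interval -0.16 to 0.13; its sign turned with several other settings). N4bp1 rose under both stimuli, to 27.8, 28.4, 27.0 and 27.0 FPKM and to 15.5, 14.7, 15.0 and 16.1. Its log2 fold changes were 0.62 (SE 0.038, adjusted p = 1.96e-13) and 0.71 (SE 0.11, adjusted p = 0.00013). The latter was 0.52 against IL-4+anti-CD40 libraries 3 and 4 alone and 0.96 against libraries 1 and 2 alone, and the fall of Zfp36l1 was -1.32 and -1.70 against the same pairs; all 4 values passed.

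Both Roquins rose with DSF by similar amounts under both stimuli. Rc3h1 was at 23.8, 23.6, 23.2 and 22.4 FPKM under LPS and DSF and at 19.0, 18.9, 17.4 and 17.7 under IL-4+anti-CD40 and DSF. The log2 fold changes were 0.68 (SE 0.042, adjusted p = 2.46e-13) and 0.64 (SE 0.056, adjusted p = 3.59e-06). Rc3h2, the less abundant paralog, was at 6.92, 6.45, 6.86 and 6.58 FPKM and at 6.34, 5.71, 5.94 and 5.85, log2 fold changes of 0.70 (SE 0.046, adjusted p = 6.47e-13) and 0.54 (SE 0.072, adjusted p = 5.56e-05). For each Roquin all 8 libraries with DSF were above all 12 without.

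Whether the DSF effect differed between the stimuli was tested as an interaction over the 16 stimulated libraries. It did for 2 of the 8 genes, both lower under LPS, where over all 15130 genes 7.92% were higher and 6.96% lower (14.9% in either direction). Zc3h12d was lowered more by DSF under LPS, the difference being -1.02 (SE 0.079, adjusted p = 4.67e-08). Zfp36l2 was raised less under LPS (-0.31, SE 0.076, adjusted p = 0.00839). The difference did not pass for Zfp36 (0.23, adjusted p = 0.0506, 95% interval 0.070 to 0.40) or Zfp36l1 (0.34, adjusted p = 0.0730, 0.080 to 0.60), although both intervals, which are not adjusted for the number of genes, lie above 0. Zfp36 passed without IL-4+anti-CD40 library 1 (0.26, adjusted p = 0.0310) and without library 3 or 4 of the group with DSF, and Zfp36l1 passed without IL-4+anti-CD40 library 4 (0.43, adjusted p = 0.00578). It was -0.13 for Zc3h12a (-0.29 to 0.027), -0.10 for N4bp1 (-0.34 to 0.14), 0.15 for Rc3h2 (-0.026 to 0.33) and 0.03 for Rc3h1 (-0.12 to 0.18, with the sign turned to -0.024 by total counts), none of which passed. The split of the IL-4+anti-CD40 libraries mattered here. Without libraries 1 and 2 of that group Zfp36 (0.26, adjusted p = 0.0264) and Rc3h2 (0.26, adjusted p = 0.0149) passed as well, and N4bp1 was at 0.098. Without libraries 3 and 4 Zfp36l1 (0.52, adjusted p = 0.000108), N4bp1 (-0.34, adjusted p = 0.000454) and Zc3h12a (-0.22, adjusted p = 0.0295) passed, and Rc3h1 was at -0.026. The differences of Zc3h12d (-0.98 and -1.06) and Zfp36l2 (-0.35 and -0.27) passed in both cases.

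The cells that received stimulus and DSF were also compared with unstimulated cells, which had been cultured for the same 3 h, and most members differed. With LPS and DSF 5 members were higher and 3 lower, against 34.3% and 37.3% of 14663 genes (71.6% in either direction), and N4bp1 was 3.90-fold higher (log2 1.97, adjusted p = 1.33e-05) and Zc3h12d 3.59-fold lower (log2 -1.84, adjusted p = 3.99e-06). With IL-4+anti-CD40 and DSF 4 were higher and 3 lower, against 33.4% and 35.3% of 14678 genes (68.7% in either direction). The libraries of these 8 and 7 genes did not overlap the unstimulated ones, which held for 33.5% of genes above and 35.1% below, and for 32.4% and 32.9%. Zfp36l1 is the case in which the directions differed: above the unstimulated level with either stimulus, it was below it with DSF, by log2 fold changes of -0.68 (adjusted p = 5.53e-05) and -0.64 (adjusted p = 0.000217). Zfp36l2 remained 6.35-fold (log2 -2.67) and 6.16-fold (log2 -2.62) below it. Zc3h12a was 1.91 and 0.75 above on the log2 scale, Rc3h1 1.13 and 0.78 and Rc3h2 1.05 and 0.88. Under IL-4+anti-CD40 and DSF N4bp1 was at 1.13 and Zc3h12d at -1.003, and all of these passed. Against unstimulated libraries 3 and 4 alone and against libraries 1 and 2 alone, N4bp1 was at 2.35 and 1.62 when DSF had been added to LPS and at 1.52 and 0.78 for the other stimulus. Rc3h1 was at 1.41 and 0.85, and at 1.07 and 0.51, in the same order. Zfp36 passed under LPS and DSF (0.89, adjusted p = 0.00271; 0.55 and 1.29 against the same pairs) but not under IL-4+anti-CD40 and DSF (0.28, adjusted p = 0.235). The last value was 0.68 (adjusted p = 4.22e-07) against unstimulated libraries 1 and 2 alone and -0.061 against libraries 3 and 4. These comparisons share libraries with those above, so they add levels and not a further test.

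The second experiment set DSF beside ibrutinib at the same dose and time. It had 1 library per condition, so no test was made and changes of at least 2-fold were counted. With DSF 4 members were higher by that measure and 2 lower under each stimulus, where 20.3% of 14275 genes were higher and 19.5% lower under LPS, and 21.9% and 20.3% under IL-4+anti-CD40. With ibrutinib no member passed 2-fold under either stimulus, where 2.81% and 2.47% of genes did under LPS and 2.23% and 1.69% under IL-4+anti-CD40. The log2 ratios of the 8 with ibrutinib lay between -0.10 and 0.33. That is a range near 0 on the scale on which DSF gave values from -2.25 to 2.14. In the same libraries the summed FPKM of the B cell markers was 1964 with LPS alone, 1278 with DSF added and 2736 with ibrutinib added, and 1675, 1374 and 2650 with the other stimulus. The summed FPKM of the myeloid markers went from 8.16 to 21.8 with DSF under LPS, that of 4 erythroid markers from 31.1 to 82.1 and that of 3 platelet markers from 27.3 to 59.5, and under IL-4+anti-CD40 from 8.77 to 21.7, 29.4 to 70.9 and 21.6 to 51.3. The part of these markers in the members' ratios was not tested.

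In these libraries Zfp36 was at 61.4 FPKM under LPS, 270 with DSF added and 71.9 with ibrutinib added. The DSF ratio was 2.14 on the log2 scale (16151 counts against 3934, 95% interval 2.09 to 2.19) and the ibrutinib ratio 0.25 (0.19 to 0.31); these intervals are exact binomial ones and cover counting error only. With IL-4+anti-CD40 the levels were 96.8, 200.4 with DSF and 104 with ibrutinib. Zfp36l1 went from 148 to 55.0 with DSF and 159 with ibrutinib under LPS, and from 235 to 49.1 and 236 under IL-4+anti-CD40, DSF ratios of -1.42 and -2.25. Zfp36l2 went from 30.4 to 61.3 with DSF and 37.4 with ibrutinib under LPS, and from 16.3 to 61.0 and 15.4 under IL-4+anti-CD40. All 3 family members thus lay on the same side of the library without DSF as in the first experiment. Zc3h12d was at 8.25 FPKM under LPS, 3.94 with DSF and 7.62 with ibrutinib, and at 9.79, 4.58 and 12.2 under IL-4+anti-CD40. The DSF ratios were -1.06 and -1.08, just past 2-fold, so the small effect under IL-4+anti-CD40 in the first experiment stood beside a ratio as large as that under LPS in the second. Zc3h12a was at 117 FPKM under LPS, 71.8 with DSF (log2 ratio -0.70) and 113 with ibrutinib. With IL-4+anti-CD40 it was at 35.4, 41.2 and 37.7.

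The Roquins were higher with DSF here too. Rc3h1 went from 12.8 FPKM to 32.3 under LPS and from 9.35 to 28.7 under IL-4+anti-CD40, log2 ratios of 1.34 and 1.63, and was at 12.8 and 9.43 with ibrutinib. Rc3h2 went from 3.71 to 7.62 and from 3.35 to 7.82, ratios of 1.04 and 1.24, and was at 3.48 and 3.44 with ibrutinib. N4bp1 did not repeat its changes. It was between 12.1 and 12.8 FPKM in all 7 libraries, whereas in the first experiment it rose under LPS and with DSF. Zfp36 and Zc3h12d, called higher under LPS than under IL-4+anti-CD40 in the first experiment, stood the other way round here. Zfp36 was at 61.4 FPKM under LPS and 96.8 under IL-4+anti-CD40, and Zc3h12d at 8.25 and 9.79. Without stimulus Zfp36 was at 63.4, below its level under IL-4+anti-CD40, where the first experiment gave no direction. Under stimulus alone the second experiment gave log2 ratios of 2.30 for Zc3h12a, 1.09 for Zfp36l1, -1.44 for Zfp36l2 and -0.08 for N4bp1 under LPS, where 2 members were at least 2-fold higher and 1 lower, against 8.62% and 9.88% of genes. With IL-4+anti-CD40 they were 1.75 for Zfp36l1 and -2.36 for Zfp36l2, the only members past 2-fold, against 10.7% and 13.7%. Members near the threshold were Zfp36l2 with DSF under LPS (1.02), Rc3h2 (1.04) and Zfp36 under IL-4+anti-CD40 (1.06) just inside it, and Zc3h12d under LPS (-0.99) just outside.

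**Figure D4:**
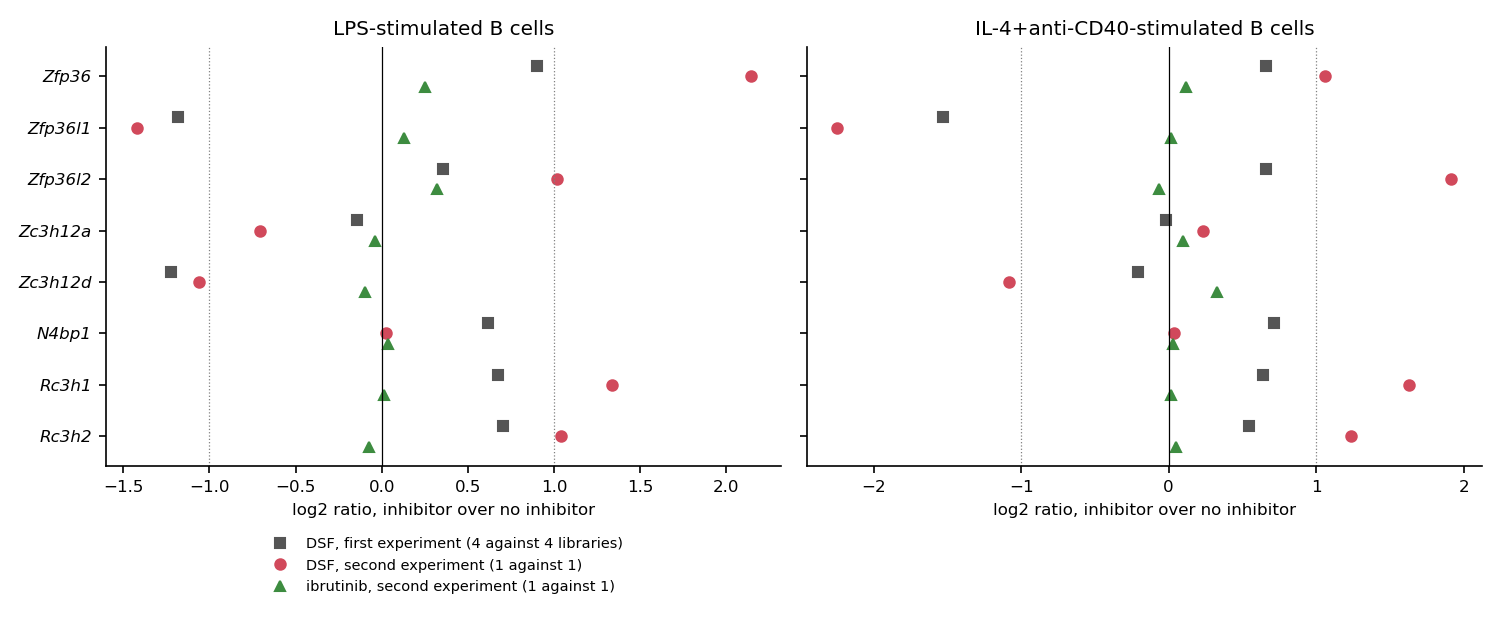
Log2 ratios of the 8 genes for DSF in the first experiment (squares, fitted on 4 libraries a group), DSF in the second (circles, single libraries) and ibrutinib in the second (triangles), under each stimulus; dotted lines mark 2-fold. The triangles lie between -0.10 and 0.33, and N4bp1 is the gene with squares away from 0 and circles near it.

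Relatives outside the 8 genes were read in the same way. Of 5, Zfp36l3 and Nynrin had too few counts to be tested. Zc3h12c, a further Regnase, rose under LPS (1.29, adjusted p = 0.000569) and under IL-4+anti-CD40 (2.06, adjusted p = 0.000112). With DSF it rose in LPS-stimulated cells (0.88, adjusted p = 2.59e-15), was at 0.27 under IL-4+anti-CD40 (adjusted p = 0.0979), and the difference passed (0.61, adjusted p = 0.00715). Against IL-4+anti-CD40 libraries 1 and 2 alone the value of 0.27 became 0.59, which passed (adjusted p = 6.8e-07). Zc3h12c was lower under LPS than under IL-4+anti-CD40 (-0.72, adjusted p = 0.0012). It was also the relative that stood out with ibrutinib: 492 counts against 1180 under LPS (log2 ratio -1.64) and 707 against 1783 under IL-4+anti-CD40 (-1.83), where no member passed 2-fold. Zc3h12b, at low counts, rose with both stimuli (1.37 and 1.71) and fell with DSF (-0.49, adjusted p = 0.0364, and -0.86, adjusted p = 0.00352). Khnyn, which shares the NYN domain with N4bp1, rose under LPS (0.60) and with DSF in LPS-stimulated cells (0.37, adjusted p = 8.79e-09) and did not pass for either change under IL-4+anti-CD40. Between the stimuli Khnyn was higher under LPS (0.55, adjusted p = 8.23e-06) and Zc3h12b did not pass (-0.28, adjusted p = 0.189). With stimulus and DSF, Zc3h12c was above the unstimulated level by 2.14 under LPS and 2.34 under IL-4+anti-CD40, and Zc3h12b by 0.85 and 0.87. Khnyn was above it under LPS and DSF (0.94) and did not pass under IL-4+anti-CD40 and DSF (0.13, adjusted p = 0.0831).

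Genes that the regulators are known to act on were followed as a list of 35 textbook targets. Of their 3′ UTRs, 68.6% held TATTTAT and 20% the stem-loop, beside 25.9% and 5.02% of all genes. With LPS 24 of 31 tested were higher and 3 lower, with a median log2 fold change of 1.77, and under IL-4+anti-CD40 17 of 28 were higher and 6 lower, with a median of 1.14; over all genes 29.6% and 33.3%, and 30.4% and 32.1%, were higher and lower. The largest rises under LPS were in the chemokine Cxcl1 (7.16) and the cytokines Il6 (6.05) and Il12b (5.62), and the falls in Klf2 (-2.73), a quiescence factor, Icos (-1.94) and the cyclin Ccnd3 (-0.54). With IL-4+anti-CD40 Il6 (3.70) and Plk3 (2.80) were among those that rose most, and Lcn2 (-2.98), Klf2 (-2.50) and the survival gene Bcl2 (-2.22) fell most; with IL-4+anti-CD40 libraries 3 and 4 alone Lcn2 no longer passed (-2.62, adjusted p = 0.0898).

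With DSF in LPS-stimulated cells 15 of 30 targets were higher and 8 lower (median 0.23), where 35.1% of all genes were higher and 36% lower. Under IL-4+anti-CD40 11 of 27 were higher and 9 lower (median 0.27), where 30.1% and 31.6% of all genes were. The chemokine Cxcl2 rose most under both stimuli, by 2.99 and 3.15 on the log2 scale. It was followed under LPS by the growth factor Vegfa (2.06) and Plk3 (1.84), and under IL-4+anti-CD40 by Ptgs2 (2.69), which makes prostaglandins, and the phosphatase Dusp1 (2.44). Bcl2 (-1.50), Ctla4 (-0.81) and Lcn2 (-0.72) fell most under LPS, and Il6 (-0.81) and Ctla4 (-0.51) were among those that fell most under IL-4+anti-CD40, the latter no longer passing against IL-4+anti-CD40 libraries 3 and 4 alone (-0.41, adjusted p = 0.0965). The DSF effect differed between the stimuli for 10 of 31 targets, where it did for 14.9% of all genes. These targets included Vegfa (1.17), Lcn2 (-1.72), Dusp1 (-1.49) and Bcl2 (-1.04). In the second experiment 8 of 29 targets were at least 2-fold higher and 5 lower with DSF under LPS, beside 20.3% and 19.5% of all genes. Under IL-4+anti-CD40 6 and 4 of 29 were, beside 21.9% and 20.3%. With ibrutinib 0 targets passed 2-fold under LPS, and 1 was lower under IL-4+anti-CD40. Few genes of any kind did so with ibrutinib: 2.81% were higher and 2.47% lower under LPS, and 2.23% and 1.69% under IL-4+anti-CD40.

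The machinery that the regulators recruit was followed as further lists. The RNA exosome degrades RNA from the 3′ end, and its list of 13 genes also held Skiv2l, Ttc37 and Wdr61, genes of the SKI cofactor complex. All 13 were lower with DSF under both stimuli, with medians of -0.65 and -0.66, against the 36% and 31.6% of genes lower overall. Exosc7 fell by 0.93 and 0.87 on the log2 scale. The stimuli without DSF had raised 10 and 11 of the 13, where 29.6% and 30.4% of all genes were higher. The catalytic subunit gene Dis3 led that rise (1.61 and 1.71). In the second experiment 12 of 13 were at least 2-fold lower with DSF, with median ratios of -1.62 and -1.69, where 19.5% and 20.3% of all genes were at least 2-fold lower. Of 17 decapping and 5′ decay genes 11 and 7 were lower and 3 and 2 higher, beside 36% and 31.6% of all genes lower and 35.1% and 30.1% higher. The scavenger decapping enzyme gene Dcps (-0.93 and -0.66) and Lsm7 (-0.90 and -0.76) fell, whereas Patl1, a scaffold of decapping, rose (0.46 and 0.45).

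Of 18 deadenylation genes 8 were higher and 8 lower with DSF in LPS-stimulated cells, and 6 and 8 under IL-4+anti-CD40, beside 35.1% and 36% of all genes and 30.1% and 31.6%. The genes that rose were led by the antiproliferative adaptor Tob1 (1.78 and 1.70) and the deadenylase subunit Cnot8 (1.31 and 1.39), with Btg2 (0.71 and 1.60). Parn (-0.99 and -0.88) and Cnot10 (-0.75 and -0.67) fell. Among 10 other regulators of AU-rich and stem-loop RNA 5 were higher and 1 lower under LPS, and 2 and 3 under IL-4+anti-CD40. The shares over all genes stand above also for this list and the next. Ybx1 (0.44 and 0.15, the latter no longer passing against IL-4+anti-CD40 libraries 1 and 2 alone) and Tial1 (0.35 and 0.17) rose and Tia1 (-0.66 and -0.43) fell. Of 15 genes whose products modify the regulators, 10 and 9 rose and 4 and 2 fell. Bcl10 (1.13 and 0.79), an adaptor that activates MALT1, and the kinase gene Tbk1 (1.01 and 0.81) rose, while Irak1 (-0.82 and -0.73), whose product marks Regnase for degradation, and Btrc (-0.62 and -0.42), which encodes the ubiquitin ligase part that binds it, fell.

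**Figure D5:**
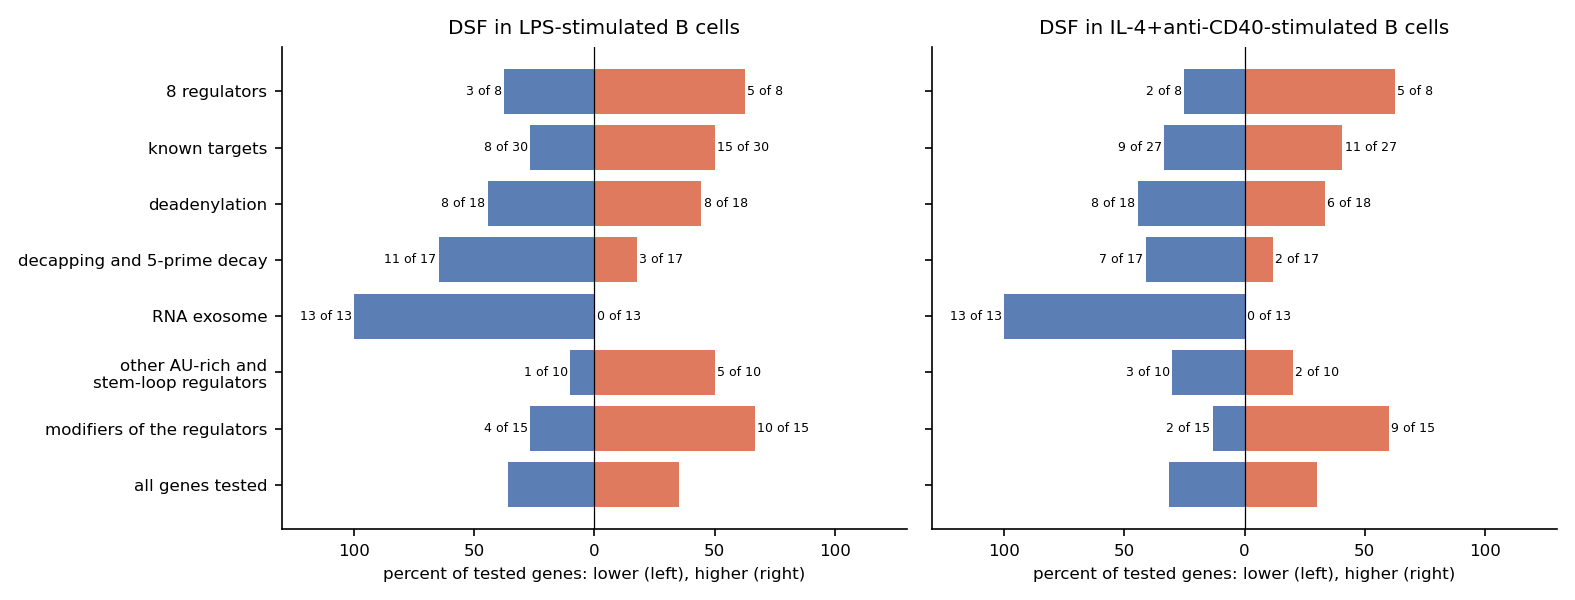
Percent of tested genes that were lower (left) and higher (right) with DSF under each stimulus, for the 8 regulators, the 6 lists of targets, machinery and modifiers, and all genes tested. All 13 genes of the exosome list, which includes SKI complex genes, are lower under both stimuli, whereas the targets and the deadenylation genes are found on both sides.

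Over the 20 libraries of the first experiment each member had genes that followed it closely in log2 library-scaled counts, out of 12183 genes. These correlations describe 5 group levels more than 20 independent points, since the libraries of a group share their condition. Zfp36 was most like Midn (Pearson r = 0.949), Zfp36l1 like Acsl5 (0.981) and Zfp36l2 like Mxd4 (0.992), a gene of the MAX network. Zc3h12a was most like Nampt (0.988) and Nfkbiz (0.987), the latter itself on the list of targets and shown above with its stem-loop. Zc3h12d was most like Mavs (0.967) and N4bp1 like Rufy3 (0.988). Rc3h1 was most like Washc4 (0.984) and Rc3h2 like Tbk1 (0.992), one of the genes listed as modifiers. Among the members themselves the Roquins followed each other (r = 0.956) and N4bp1 followed Rc3h1 (0.934). The most opposed pair of members was Zc3h12d with Rc3h2 (-0.889), and within the ZFP36 family Zfp36 and Zfp36l1 stood at -0.750.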

How the data were processed

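RNA was made into poly(A)-selected libraries. The authors trimmed reads with Fastp, aligned them to mm10 with HISAT2 2.0.5 and counted reads per gene with featureCounts 1.5.0-p3 (versions per the submitters' processing notes). The deposited counts are raw, and the deposited FPKM values, also made by the authors, divide by gene length and a scaled library size close to the TMM one (ratio 0.973 to 1.03 in the first experiment). The protocol names both a directional and a non-directional library, so strand use is not settled: antisense genes overlap Zfp36 and Zfp36l1 (counts up to 0.201% and 2% of theirs). FPKM served for levels and counts for tests. Each comparison was fitted on its own 4 + 4 libraries over all genes with edgeR 4.0.16 in R 4.3.3 (TMM scaling, filterByExpr, quasi-likelihood test, two-sided, Benjamini-Hochberg adjustment over all genes tested, threshold 0.05), and the difference of DSF effects on 16 libraries. Intervals use the t distribution of that test. In the second experiment log2 ratios of TMM-scaled counts used a prior count of 2, over genes whose mean reached 10 counts, with no test. The procedure was run on simulated counts for DSF under LPS and for the difference of DSF effects. The simulated spread was alike for all genes and held no library splits. Comparisons with the unstimulated libraries were not simulated. Alternatives included DESeq2 1.42.0, total counts, other filters, a replicate block and leaving out each library. Replicates of a group differed by more than sampling noise.

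All 8 genes and 5 relatives were eligible in every comparison. From each other list, up to 3 genes per direction with the largest change past the threshold were eligible, and for likeness the 3 genes with the highest correlation. The genes and lists were chosen with earlier results of these data known. Same-numbered libraries mostly did not deviate together (correlations from -0.056 to 0.169). The highest values were for DSF under IL-4+anti-CD40, 0.169 for number 1 and 0.147 for number 4. There each library with DSF was closest to that of its own number. Numbers 2 and 3 of that comparison were at -0.040 and -0.022. Replicate numbers were not used to pair libraries. A gene that these rules would name is not reported here.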

Additional observations from a re-analysis of the deposited data

Results flagged for a closer look

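In 2 of 40 sets of 4 libraries, 1 library lay far from the other 3, by Dixon's 95% limit for the gap over the range; chance gives about 1 in 20. Zfp36 was at 89.9 FPKM in LPS library 1, against 98.6 to 99.4 in the others (gap over range 0.915). Zc3h12d was at 13.6 FPKM in IL-4+anti-CD40 library 3, against 12.3 to 12.4 (0.887). The DSF effect differed between the stimuli by the interaction test for Zfp36l2 (-0.31, LPS minus IL-4+anti-CD40) and Zc3h12d (-1.02).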

How the results depend on the processing

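The libraries used and the scaling both changed results. Total counts in place of TMM moved the median log2 fold change of all genes by -0.23 for LPS, -0.15 for IL-4+anti-CD40, -0.13 between the stimuli, -0.21 and -0.15 for DSF, and -0.41 and -0.31 for both stimuli plus DSF against unstimulated. Calls over all genes went from 4283 higher and 4818 lower to 2903 and 6387 for LPS, from 4389 and 4633 to 3454 and 5574 for IL-4+anti-CD40, from 3145 and 2439 to 2428 and 4712 between the stimuli, from 4966 and 5096 to 3473 and 6680 for DSF under LPS, from 4301 and 4514 to 3262 and 5832 for DSF under IL-4+anti-CD40, from 5031 and 5464 to 3151 and 7453 and from 4901 and 5178 to 3117 and 6760 for stimulus plus DSF, and from 1199 and 1053 to 826 and 1423 for the difference. With it 3 members instead of 5 were higher under LPS; in the second experiment 1 was at least 2-fold higher and 2 lower with LPS, and 2 instead of 4 were higher with DSF under either stimulus. Signs turned for Zfp36 (LPS -0.20, IL-4+anti-CD40 plus DSF -0.026), Rc3h1 (IL-4+anti-CD40 -0.020, difference -0.024), Rc3h2 (LPS against IL-4+anti-CD40 -0.037), Khnyn (-0.042 with IL-4+anti-CD40, -0.13 with DSF added, -0.18 for both against unstimulated), Lsm2 (DSF under LPS, -0.022) and Upf1 (DSF under IL-4+anti-CD40, -0.0069).

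Asking for 2-fold as well left 2 higher and 1 lower member under LPS, 0 and 1 under IL-4+anti-CD40, 2 and 0 between the stimuli, 0 higher with DSF under LPS, 0 and 1 with DSF under IL-4+anti-CD40, 1 higher with IL-4+anti-CD40 plus DSF against unstimulated, and 1 lower for the difference. With all 20 libraries in one fit 1 member was lower with DSF under IL-4+anti-CD40, 1 for the difference (Zfp36l2 -0.38, adjusted p = 0.259), and Rc3h1 was at -0.042 there. For the difference 1 member was higher with all genes of any count (Zfp36l1, adjusted p = 0.0132), with at least 10 counts in every sample (Zfp36, adjusted p = 0.0313) and with the replicate block. Zc3h12a with DSF under IL-4+anti-CD40 was at 0.00094 with DESeq2, 0.00073 with its size factors, 0.013 with at least 10 counts and 0.042 in one fit, and Khnyn at -0.0013 with genes of any count. A mean of at least 50 counts in the second experiment gave 2 members lower with LPS and 1 lower with DSF under either stimulus. DESeq2 changed none of the 16 member counts.

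Without unstimulated libraries 1 and 2, Zfp36 was at -0.29 for LPS and -0.061 for IL-4+anti-CD40 plus DSF, and 5 members were higher under IL-4+anti-CD40; without 3 and 4, Zfp36 was at 0.023 and Rc3h1 at -0.13 under IL-4+anti-CD40. Without IL-4+anti-CD40 libraries 1 and 2, Rc3h2 between the stimuli was at -0.034, with 0 members lower there, Khnyn with DSF at -0.054, and N4bp1 for the difference at 0.098, with 2 members higher; without 3 and 4, Zc3h12a with DSF was at 0.077 and Rc3h1 for the difference at -0.026, with 1 member higher and 4 lower. Leaving out 1 library at a time kept 134 of 144 member counts within 1.5 times. The ranges were -0.088 to 0.17 for Zfp36 under LPS, 0 to 1 members lower between the stimuli, -0.050 to 0.022 for Zc3h12a and -0.025 to 0.050 for Khnyn with DSF under IL-4+anti-CD40, and 0 to 1 members higher and -0.0096 to 0.059 for Rc3h1 for the difference. The replicate numbers mostly did not pair the libraries, apart from numbers 1 and 4 with DSF under IL-4+anti-CD40. Under the replicate block Rc3h2 with IL-4+anti-CD40 was no longer called (0.33, adjusted p = 0.0695), the difference for Zfp36 was called (0.24, adjusted p = 0.0165), and so was Zc3h12c with DSF under IL-4+anti-CD40 (0.29, adjusted p = 0.0450). Except where a value above shows it, the cause was not tested.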
